A study of Mus musculus with 18 samples.

Results

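The 10 genes described here let haematopoietic stem cells (HSCs) find, enter and stay in their bone marrow niche. They are Cxcr4, Itga4, Itga6, Itgb1, Tln1, Selplg, Cd44, Angpt1, Robo4 and Jam3, chosen by name for a role in retention, homing or adhesion. All 10 were found among the 23038 genes of both deposited tables, which were joined on the gene identifier. The study fractionated HSC RNA with an antibody against N6-methyladenosine (m6A), a methyl mark on mRNA, to ask which transcripts owe their m6A to Mettl3, the enzyme that writes it. Mettl3-deficient HSCs came from mice carrying Mx1-cre and Mettl3fl/fl, and the control HSCs from mice labelled wild-type. All were adult C57BL/6 mice and had received 5 doses of 10 µg pIpC, a double-stranded RNA analogue that induces interferon and so switches on Mx1-cre, and were killed 10 days after the last dose. Mx1-cre responds to interferon in many cell types, so deletion is not limited to HSCs. Each sample was 3000 sorted cells (Sca1+ cKit+ CD150+, without CD48 and lineage markers), and each genotype gave 3 m6A-tagged, 3 unbound and 3 input libraries, 18 in all, which the study calls biological replicates. The m6A-tagged RNA was released from the antibody beads, the unbound RNA was collected in the washes, and the input was not exposed to antibody.

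As background, CXCR4 is the receptor for the chemokine CXCL12, which niche stromal cells make and which holds HSCs in the marrow. Cells first roll on vessel walls through selectin ligands such as PSGL-1, then stop through integrins, which need talin to bind tightly. Angiopoietin-1, ROBO4 and JAM-C belong to vascular guidance and junction systems that HSCs share with endothelium. m6A is placed co-transcriptionally on a subset of mRNAs and is read by proteins that alter their decay and translation.

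Each deposited value is the authors' mean of 3 libraries in reads per kilobase and per M reads (RPKM; M, 1e6), so there is no spread between libraries and no test. Whether a single library makes up most of a mean cannot be seen for these genes. Ratios below are on the log2(RPKM + 1) scale unless stated, which understates the change of low genes, and a gene is called different at 2-fold. Comparisons take in the 6295 genes whose 6 columns average 10 RPKM or more, and 7 of the 10 genes are among them. Cxcr4, Itga4 and Itga6 lie below this minimum, so their values and ratios are given but stay out of the counts of genes compared. The harmonic mean depth of the libraries was 29.7, 15.8 and 16.2 M reads in Mettl3-deficient m6A-tagged, unbound and input RNA, and 32.9, 26.0 and 32.6 M reads in the same wild-type fractions. Mettl3 itself (chromosome 14, 52294841 to 52308741) was at 19.6 RPKM in Mettl3-deficient and 36.4 RPKM in wild-type input. Reads from exons outside the deleted stretch still count, so this checks the genotype label only in part. HSC markers were present, with the 14 summing to 1493 RPKM in Mettl3-deficient and 1190 RPKM in wild-type input. Neutrophil and monocyte markers were also present and differed between genotypes, 9 genes summing to 862 RPKM in Mettl3-deficient and 6002 RPKM in wild-type input, and all 7 of them that were compared were at least 2-fold lower in Mettl3-deficient input, where 6.67% of all genes compared were. Erythroid markers summed to 71.6 and 343 RPKM in the same order. Their part in the results below was not tested. In bulk RNA, fewer cells of a type and less RNA per cell cannot be told apart.

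In input RNA, Selplg, Angpt1, Itgb1 and Tln1 were abundant in both genotypes and Cxcr4 was scarce. In Mettl3-deficient input the order was Selplg (86.9 RPKM), Angpt1 (84.9 RPKM), Itgb1 (79.2 RPKM), Tln1 (58.7 RPKM), Robo4 (35.3 RPKM), Jam3 (19.6 RPKM), Cd44 (17.8 RPKM), Itga6 (9.42 RPKM), Itga4 (7.94 RPKM) and Cxcr4 (0.826 RPKM). In wild-type input it was Tln1 (89.5 RPKM), Selplg (69.9 RPKM), Angpt1 (67.7 RPKM), Itgb1 (64.7 RPKM), Robo4 (17.3 RPKM), Cd44 (16.2 RPKM), Itga6 (11.8 RPKM), Jam3 (9.04 RPKM), Itga4 (7.35 RPKM) and Cxcr4 (2.13 RPKM). Neighbours in either order cannot be separated without a spread between libraries. Of all 23038 genes only 5.40% had a higher Mettl3-deficient input value than Selplg, whereas 49.7% had a higher one than Cxcr4. These 2 shares are not over the 6295 genes compared, and 6986 of the 23038 genes had no reads in any column. Partners of these receptors ranged from near the lowest values of the tables to well above 10 RPKM. Cxcl12 was at 0.0086 RPKM in Mettl3-deficient and 0.038 RPKM in wild-type input, and Sele, an endothelial selectin, at 0.0211 and 0.0105 RPKM. The values contain 1 added read per library, worth 0.0616 RPKM of a 1-kilobase gene in Mettl3-deficient and 0.0307 RPKM in wild-type input. The Sele values differ between the inputs as this added read does, so they show no difference in level. Vcam1, whose product binds the Itga4 and Itgb1 pair, was at 1.55 RPKM in Mettl3-deficient and 5.63 RPKM in wild-type input. Selp, the P-selectin that PSGL-1 binds, was at 91.9 RPKM in Mettl3-deficient and 52.2 RPKM in wild-type input.

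**Figure D1:**
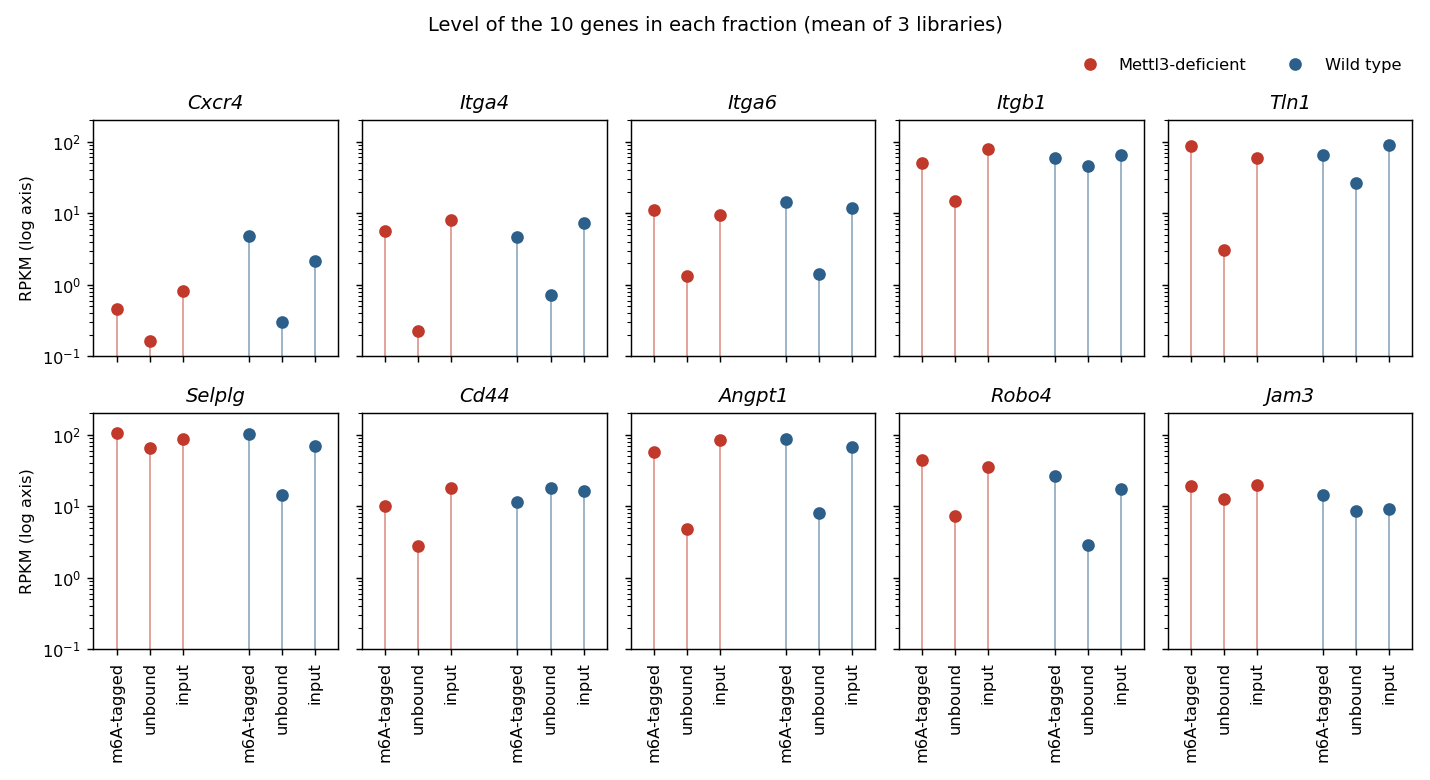
RPKM of the 10 genes (log axis) in m6A-tagged, unbound and input RNA of Mettl3-deficient cells (left, red) and wild-type cells (right, blue); each point is the authors' mean of 3 libraries, with no error available, and the thin lines only link points to the axis. On the RPKM as deposited, the unbound point is the lowest of its genotype in every panel except wild-type Cd44, and the gap is widest for Tln1 and Itga4 in Mettl3-deficient cells.

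Coordinates below are RefSeq's on GRCm38.p6 (mm10). Cxcr4 (gene 12767, chromosome 1, 128588199 to 128592299), the chemokine receptor, was low in all 6 columns. It had 0.459 RPKM in m6A-tagged, 0.165 RPKM in unbound and 0.826 RPKM in input RNA of Mettl3-deficient cells. The wild-type values were 4.74 RPKM in m6A-tagged, 0.306 RPKM in unbound and 2.13 RPKM in input RNA. All 3 Mettl3-deficient values thus lay under their wild-type counterparts, and the m6A-tagged pair was the furthest apart, by 10.3-fold on RPKM with nothing added and 3.93-fold with 1 RPKM added. Within wild-type cells m6A-tagged RNA exceeded input by 2.22-fold with nothing added, while in Mettl3-deficient cells it was 1.80-fold lower than input. These values rest on few reads, about 13.6 reads per kilobase of gene and library in Mettl3-deficient m6A-tagged RNA, against 156 in its wild-type counterpart. Mettl3-deficient unbound RNA had 2.60. The added read per library that the authors' formula contains accounts for 0.0634 RPKM of a gene of 1 kilobase in that last column.

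The integrin chains Itga4 (gene 16401, chromosome 2, 79255426 to 79333114) and Itga6 (gene 16403, chromosome 2, 71786886 to 71858427) pair with Itgb1 (gene 16412, chromosome 8, 128685654 to 128733579) into receptors for VCAM-1 and laminin. Itga4 had 5.59, 0.226 and 7.94 RPKM in Mettl3-deficient m6A-tagged, unbound and input RNA, and 4.72, 0.718 and 7.35 RPKM in the same wild-type fractions. Itga6 had 10.96, 1.33 and 9.42 RPKM in the Mettl3-deficient fractions in that order, and 14.4, 1.40 and 11.8 RPKM in the wild-type ones. For both alpha chains m6A-tagged and input RNA were close and unbound RNA was far lower, in each genotype. Itgb1 had 51.0, 14.8 and 79.2 RPKM in the Mettl3-deficient fractions and 58.4, 45.3 and 64.7 RPKM in the wild-type ones, so its unbound value stood near the other wild-type values but well under the other Mettl3-deficient ones. In input RNA the beta chain stood far above both alpha chains in each genotype.

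Tln1 (gene 21894, chromosome 4, 43531513 to 43562583) encodes talin, the cytoskeletal protein that activates integrins from inside the cell. It had 85.7 RPKM in m6A-tagged, 3.09 RPKM in unbound and 58.7 RPKM in input RNA of Mettl3-deficient cells, against 64.2, 26.3 and 89.5 RPKM in wild-type cells. In Mettl3-deficient cells m6A-tagged RNA was the highest of the 3 fractions, and in wild-type cells input was. The low Mettl3-deficient unbound value is about 48.7 reads per kilobase and library.

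Selplg (gene 20345, chromosome 5, 113817798 to 113832528) encodes PSGL-1, the main selectin ligand of blood cells. It had 106 RPKM in m6A-tagged, 64.6 RPKM in unbound and 86.9 RPKM in input RNA of Mettl3-deficient cells, against 102, 14.5 and 69.9 RPKM in wild-type cells. The m6A-tagged values nearly coincided between genotypes and the unbound values did not. Cd44 (gene 12505, chromosome 2, 102811141 to 102901669), a hyaluronan receptor that also carries selectin-binding sugars, had 10.1, 2.77 and 17.8 RPKM in the Mettl3-deficient fractions and 11.5, 17.8 and 16.2 RPKM in the wild-type ones. It was the 1 gene of the 10 with a higher wild-type unbound than m6A-tagged value.

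Angpt1 (gene 11600, chromosome 15, 42424667 to 42676977), the ligand of the receptor Tie2, had 57.5, 4.79 and 84.9 RPKM in Mettl3-deficient m6A-tagged, unbound and input RNA, and 88.2, 7.97 and 67.7 RPKM in the wild-type fractions. Tek, which encodes Tie2, was at 15.7, 1.48 and 21.2 RPKM in the Mettl3-deficient and at 17.1, 6.22 and 15.5 RPKM in the wild-type fractions, so ligand and receptor RNA were both present in the sorted cells. Robo4 (gene 74144, chromosome 9, 37401902 to 37414023), a guidance receptor of endothelium and HSCs, had 43.8, 7.26 and 35.3 RPKM in the Mettl3-deficient fractions and 26.3, 2.90 and 17.3 RPKM in the wild-type ones. Jam3 (gene 83964, chromosome 9, 27097384 to 27155421), which encodes the junctional adhesion molecule JAM-C, had 19.0, 12.7 and 19.6 RPKM in the Mettl3-deficient fractions and 14.3, 8.49 and 9.04 RPKM in the wild-type ones. Robo4 and Jam3 were higher in all 3 Mettl3-deficient fractions than in their wild-type counterparts. Of the endothelial and stromal markers, Cdh5 was at 0.0154 RPKM in Mettl3-deficient and 0.0528 RPKM in wild-type input, and Kdr at 0.115 and 0.754 RPKM. Lepr and Cxcl12 were at 0.038 RPKM or less in both inputs, and the 10 markers summed to 100.1 RPKM in Mettl3-deficient and 66.4 RPKM in wild-type input. Most of that sum was Pecam1, Tek and Emcn, which HSCs also express.

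With 1 RPKM added, m6A-tagged RNA was within 2-fold of input for each of the 10 genes in both genotypes, while wild-type Cxcr4 was past it with nothing added, as given above. None of the 7 genes compared differed 2-fold between m6A-tagged and input RNA in Mettl3-deficient cells, where 2.81% of all genes did (1.37% higher and 1.45% lower). None did in wild-type cells, where 8.91% did (3.69% higher and 5.23% lower). A count of 0 of 7 is near either share. In Mettl3-deficient cells the 7 log2 ratios ran from -0.76 for Cd44 to 0.54 for Tln1, with a median of -0.04 beside 0.12 over all genes. Itgb1 was at -0.63 and Angpt1 at -0.55, and only 3.13%, 5.16% and 6.39% of all genes lay below Cd44, Itgb1 and Angpt1. In wild-type cells the ratios ran from -0.47 for Tln1 to 0.61 for Jam3, with a median of 0.38 beside 0.06 over all genes. Robo4 (0.58), Selplg (0.54) and Angpt1 (0.38) stood on the m6A-tagged side, and Cd44 (-0.46) and Itgb1 (-0.15) on the input side with Tln1. Of the 3 low genes, Cxcr4 had a Mettl3-deficient log2 ratio of -0.32 and a wild-type one of 0.87, Itga4 -0.44 and -0.54, and Itga6 0.20 and 0.27. The signs of these wild-type and Mettl3-deficient ratios were the same under each of the 3 rescalings of the columns.

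**Figure D2:**
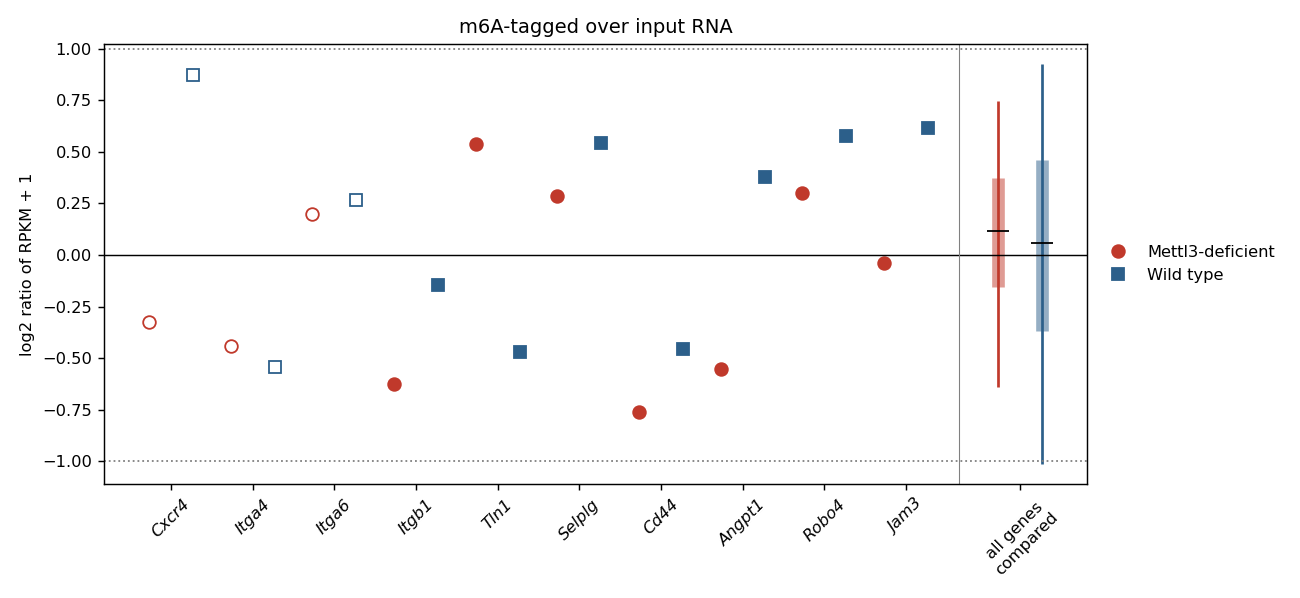
Log2 ratio of RPKM + 1 in m6A-tagged over input RNA for the 10 genes in Mettl3-deficient (red circles) and wild-type cells (blue squares); open symbols mark the 3 genes with a mean under 10 RPKM, and dotted lines 2-fold. At the right, thin bars span percentiles 5 to 95 and thick bars 25 to 75 of the 6295 genes compared, with a black dash at the median. All 20 points lie within 2-fold, and Cxcr4, Tln1, Angpt1 and Jam3 lie on opposite sides of 0 in the 2 genotypes.

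Set side by side between genotypes, the m6A-tagged over input ratio was lower in Mettl3-deficient than in wild-type cells for 6 of the 7 genes compared, where 47.6% of all genes were. It was also lower for Cxcr4 and, by little, for Itga6. Of the HSC markers compared, 9 of 11 were lower too, as were 12 of 15 selectin and 13 of 19 junctional genes. Of the other lists used below, 5 of 20 integrin, 8 of 26 chemokine signalling and 3 of 7 guidance genes were lower. The genotype difference here subtracts the log2 ratio of wild-type from that of Mettl3-deficient cells. Of the 7 genes compared, 1 passed 2-fold upward, where 7.31% of all genes did, and 0 downward, where 2.91% did (10.2% either way). The gene was Tln1 at 1.01, and it was at 0.95 under median-ratio scaling and at 0.99 and 0.91 under the 2 upper-quartile scalings, so the call rests on the scaling. Angpt1 had the lowest value of the 7, -0.93, and 3.94% of all genes lay below it. It passed 2-fold, at -1.03, with columns rescaled by the upper quartile of the genes compared. Jam3 was at -0.65, Itgb1 at -0.48, Cd44 at -0.31, Robo4 at -0.28 and Selplg at -0.26, and the median of the 7 was -0.31 beside 0.04 over all genes. Cxcr4, below the minimum, was at -1.20, with -0.54 when 5 RPKM was added and -1.84 when 0.1 RPKM was. Itga6 was at -0.07 and Itga4 at 0.10.

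The RPKM of most of these transcripts was much lower in unbound than in m6A-tagged RNA. RPKM is relative to the reads of each library, so it does not give the amount of a transcript in a fraction. Of the 7 genes compared, 5 were at least 2-fold higher in the m6A-tagged fraction of Mettl3-deficient cells, where 33.7% of all genes were, and 0 were lower, where 16.9% were (50.6% either way). Tln1 was 21.2-fold higher (log2 4.41), and 3 of the 6295 genes had a higher ratio. Angpt1 was 10.1-fold, Robo4 5.42-fold, Itgb1 3.29-fold and Cd44 2.94-fold higher, while Selplg (1.63-fold) and Jam3 (1.46-fold) did not pass. Jam3 moved to -0.09 on the log2 scale with columns rescaled by the upper quartile of genes with reads. With 5 RPKM added, Tln1 was at 3.49 and Cd44 at 0.96. In wild-type cells 4 of the 7 were at least 2-fold higher, where 31.5% of all genes were, and 0 lower, where 19.3% were (50.8% either way). Angpt1 was 9.94-fold, Robo4 7.01-fold, Selplg 6.68-fold and Tln1 2.39-fold higher in m6A-tagged RNA. Tln1 was at 0.67 on the log2 scale with that same rescaling. Jam3 was at 0.69, Itgb1 at 0.36 and Cd44 at -0.58, and with that rescaling Itgb1 turned to -0.24 and Cd44 passed 2-fold downward at -1.15. The 3 low genes also had a lower unbound than m6A-tagged value in each genotype. On RPKM with nothing added, Itga4 was 24.7-fold higher in Mettl3-deficient and 6.58-fold higher in wild-type cells, Itga6 8.25-fold and 10.2-fold, and Cxcr4 2.79-fold and 15.5-fold.

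**Figure D3:**
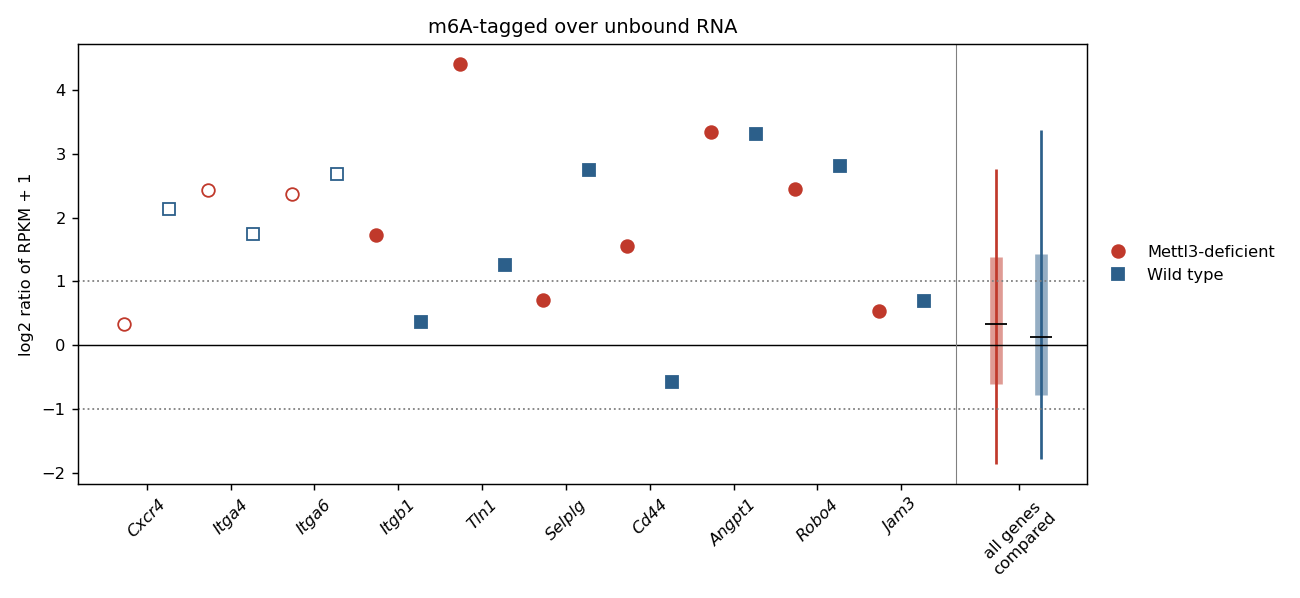
Log2 ratio of RPKM + 1 in m6A-tagged over unbound RNA for the 10 genes in Mettl3-deficient (red circles) and wild-type cells (blue squares); open symbols, dotted lines and the bars for all genes compared are as for the ratio over input. Angpt1 and Robo4 lie far above 0 in both genotypes, while Tln1, Cd44 and Itgb1 lie higher in Mettl3-deficient cells and Selplg higher in wild-type cells.

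The unbound value was the lowest of the 3 fractions for 7 of the 7 genes compared in Mettl3-deficient cells, where 51.8% of all genes had that order, and for 6 of the 7 in wild-type cells, where 47.3% did. The 3 low genes had the same order in both genotypes. With columns rescaled by the upper quartile of genes with reads, the counts were 5 of 7 in Mettl3-deficient cells, without Selplg and Jam3, and 4 of 7 in wild-type cells, without Itgb1, Cd44 and Jam3, where 37.3% and 34.4% of all genes had it. Genomic span goes with this ratio over all genes, which were cut into 5 groups of about equal size by span. In the group with the longest span, 37715 bases or more, the median m6A-tagged over unbound log2 ratio was 1.26 in Mettl3-deficient cells, against 0.39 in wild-type cells. In the group with the shortest span, 5829 bases or less, it was -0.54 and -0.15. The set leans to long genes, with Itga4, Itga6, Itgb1, Cd44, Angpt1 and Jam3 in the longest group, Tln1 in the next, Selplg and Robo4 in the third and Cxcr4 in the shortest. Angpt1 at 3.34 and 3.31 stood above the median of its span group in Mettl3-deficient and wild-type cells, and so did Tln1 at 4.41 and 1.26 beside group medians of 0.82 and 0.21. Jam3 stood under the group median of 1.26 in Mettl3-deficient cells, and Cd44 at -0.58 and Itgb1 at 0.36 stood under that of 0.39 in wild-type cells. The part of span in these ratios was not tested. For 4 of the 7 genes compared in Mettl3-deficient cells (Itgb1, Cd44, Angpt1 and Jam3) both antibody fractions lay below input, a pattern of 21.2% of all genes. In wild-type cells 2 did (Itgb1 and Tln1), where 12.7% of all genes did. Of the low genes, Itga4 had this pattern in both genotypes and Cxcr4 in Mettl3-deficient cells.

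Between genotypes, the m6A-tagged over unbound ratio of the set went in both directions. Of the 7 genes compared, 3 had a ratio at least 2-fold higher in Mettl3-deficient cells, where 23.7% of all genes did, and 1 a lower one, where 22.8% did (46.5% either way). Tln1 led at 3.15 on the log2 scale, with 69 of 6295 genes above it, followed by Cd44 at 2.14 and Itgb1 at 1.36. Selplg was the lower one, at -2.03. Robo4 (-0.37), Jam3 (-0.15) and Angpt1 (0.02) did not pass, and Angpt1 lay on either side of 0 depending on the scaling. Among the low genes Cxcr4 was at -1.81, Itga4 at 0.69 and Itga6 at -0.32.

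In unbound RNA alone, Tln1, Cd44 and Itgb1 had lower RPKM and Selplg and Robo4 higher RPKM in Mettl3-deficient than in wild-type cells. Of the 7 genes compared 3 were at least 2-fold lower, where 22.7% of all genes were, and 2 at least 2-fold higher, where 19.7% were (42.3% either way). Tln1 was 6.67-fold lower (3.09 against 26.3 RPKM), Cd44 4.98-fold lower (2.77 against 17.8 RPKM) and Itgb1 2.94-fold lower (14.8 against 45.3 RPKM). Selplg was 4.24-fold higher (64.6 against 14.5 RPKM) and Robo4 2.12-fold higher (7.26 against 2.90 RPKM). Angpt1 (-0.63) and Jam3 (0.53) did not pass, and neither did the low genes Itga4 (-0.49), Cxcr4 (-0.17) and Itga6 (-0.05), of which Itga6 was at 0.05 under median-ratio scaling. The pathway lists went both ways in unbound RNA, beside a median of 0.02 over all genes. Of 20 genes of the integrin list 13 were at least 2-fold lower and 2 higher in Mettl3-deficient cells (median -1.21), of 26 chemokine signalling genes 11 were lower and 2 higher (-0.66), and of 7 guidance genes 5 were lower and 1 higher (-1.23). Of 19 junctional genes 2 were lower and 6 higher (0.51), and of 15 selectin genes 0 were lower and 5 higher (0.25). Neutrophil and monocyte markers in unbound RNA summed to 1606 RPKM in Mettl3-deficient and 8663 RPKM in wild-type cells. Megakaryocyte markers, which include the integrin chain genes Itga2b and Itgb3, summed to 723 RPKM in Mettl3-deficient and 1608 RPKM in wild-type unbound RNA. The part of these markers in the unbound values was not tested.

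In input RNA, Jam3 and Robo4 were higher in Mettl3-deficient than in wild-type cells and the other 5 genes compared were within 1.52-fold. Jam3 was 2.05-fold higher (19.6 against 9.04 RPKM) and was the 1 gene of the 7 past 2-fold, where 2.38% of all genes were higher and 6.67% lower (9.05% either way). Robo4 stood just under, at 1.98-fold (35.3 against 17.3 RPKM), and passed 2-fold on RPKM with nothing added (2.04-fold) and under each of the 3 rescalings, from 1.04 to 1.12 on the log2 scale. Of all genes compared, 2.21% had a higher ratio than Jam3 and 2.49% a higher one than Robo4. Angpt1 (0.32), Selplg (0.31), Itgb1 (0.29) and Cd44 (0.13) were slightly higher and Tln1 was lower at -0.60, and all 5 kept these signs under the rescalings. Among the low genes Cxcr4 was at -0.78, Itga6 at -0.29 and Itga4 at 0.10. The HSC markers compared had a median of 0.24 in this comparison beside -0.05 over all genes, and Slamf1, which encodes the CD150 of the sort, was at 37.8 RPKM in Mettl3-deficient and 24.2 RPKM in wild-type input. The neutrophil and monocyte markers summed to 6.97-fold less in Mettl3-deficient input, as given above.

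Between the genotypes' m6A-tagged RNA, Robo4 and Angpt1 were the furthest apart of the 7 genes compared. None of the 7 genes compared differed 2-fold, where 13.2% of all genes did (6.02% higher and 7.15% lower), and 0 of 7 is near that share. Robo4 (0.71), Tln1 (0.41) and Jam3 (0.38) were higher in Mettl3-deficient cells, Angpt1 (-0.61), Itgb1 (-0.19) and Cd44 (-0.18) lower, and Selplg was at 0.05. Cxcr4 had the widest gap of the 10 at -1.98, with -0.83 when 5 RPKM was added.

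**Figure D4:**
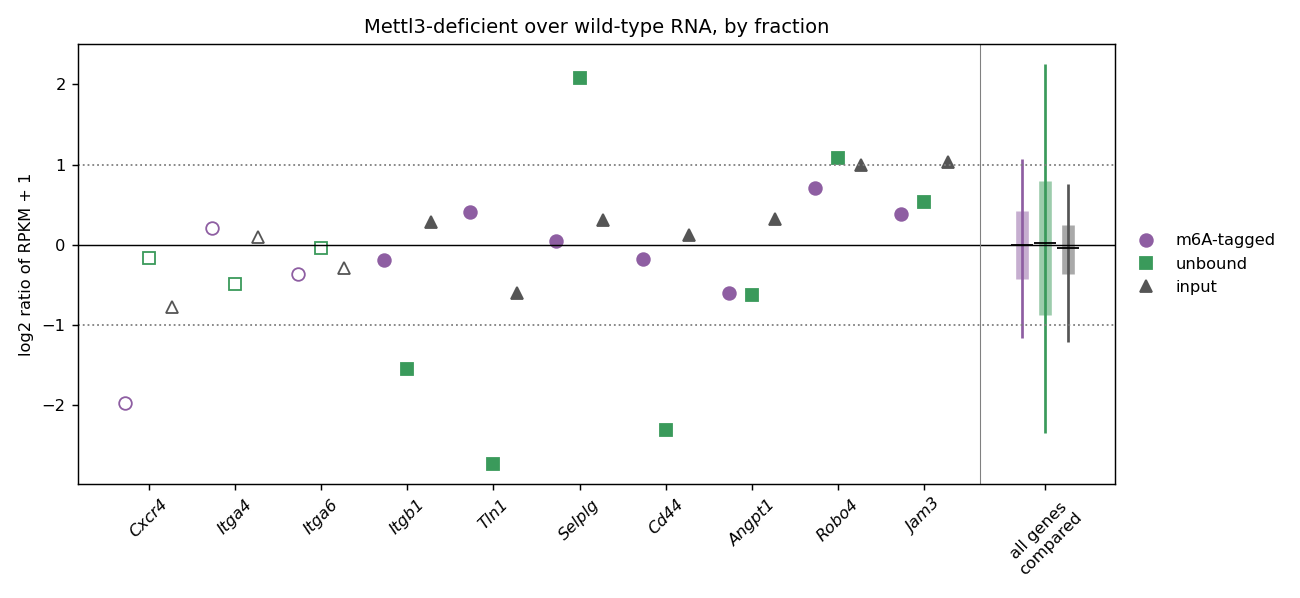
Log2 ratio of RPKM + 1 in Mettl3-deficient over wild-type cells for the 10 genes in m6A-tagged (purple circles), unbound (green squares) and input RNA (grey triangles); open symbols, dotted lines and the bars for all genes compared are as for the ratio over input. The unbound squares spread from -2.74 for Tln1 to 2.08 for Selplg, while the input triangles lie between -0.78 for Cxcr4 and 1.03 for Jam3.

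Other genes of the same pathways were taken from 5 lists. Their counts stand beside the shares of all genes past 2-fold given above: 1.37% higher and 1.45% lower in Mettl3-deficient m6A-tagged over input, 3.69% and 5.23% in the wild-type ratio, and 2.38% and 6.67% between the inputs. Over unbound RNA the shares were 33.7% higher and 16.9% lower in Mettl3-deficient cells, and 31.5% and 19.3% in wild-type cells. In the list of integrin chains, activators and adhesion adaptors, 20 of 44 genes were compared, and 0 differed 2-fold between m6A-tagged and input RNA in Mettl3-deficient cells and 1 in wild-type cells. That 1 was Rsu1, a partner of the integrin-linked kinase complex, at -1.51 (18.5 against 54.8 RPKM), followed by Itgb7, the other beta chain that pairs with Itga4, at -0.75. In Mettl3-deficient cells Vasp, which extends actin filaments, was highest at 0.97 (39.0 against 19.5 RPKM), followed by Rasgrp2, an activator of Rap1, at 0.70, and Rap1a was lowest at -0.77. Of the same 20 genes, 3 were at least 2-fold lower and 0 higher in Mettl3-deficient than in wild-type input, where 6.67% of all genes were lower. Vasp (19.5 against 85.0 RPKM) and Rasgrp2 (24.6 against 59.3 RPKM) were the lowest, at -2.07 and -1.23, and Itga5, a fibronectin receptor chain, was the highest at 0.51. In m6A-tagged over unbound RNA 12 of the 20 were higher and 1 lower in Mettl3-deficient cells, with a median of 1.17 beside 0.33 over all genes, and 4 were higher and 4 lower in wild-type cells, with a median of -0.45 beside 0.12.

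Of 44 genes of CXCL12 and CXCR4 signalling and migration, 26 were compared. Between m6A-tagged and input RNA 1 was at least 2-fold higher and 0 lower in Mettl3-deficient cells, and 0 were higher and 2 lower in wild-type cells. Wasf2, which drives actin branching, was the higher one at 1.15, and the wild-type pair were Grk2 and Grk6, kinases that switch off chemokine receptors, at -1.20 and -1.01. Both kinases stood on the other side of 0 in Mettl3-deficient cells, and their genotype differences, 1.91 and 1.72, were the highest of the list. In Mettl3-deficient over wild-type input 0 of the 26 were higher and 5 lower (6.67% of all genes), led by the G protein subunit Gnb2 (36.0 against 202 RPKM, -2.46) and Grk6 (10.9 against 50.7 RPKM, -2.13). Over unbound RNA 13 were higher and 3 lower in Mettl3-deficient cells (median 1.01), and 7 higher and 7 lower in wild-type cells (-0.49). Between the inputs Coro1a, an actin regulator, and Cdc42, a small GTPase of cell polarity, were the highest at 0.53 and 0.42. Ackr3, the other CXCL12 receptor, was at 0.0239 RPKM in Mettl3-deficient and 0.0119 RPKM in wild-type input. Like those of Sele, these values differ as the added read does and show no difference in level.

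The list of selectins, selectin ligands and their glycosylation enzymes had 15 of 25 genes compared. In wild-type m6A-tagged RNA 2 genes were at least 2-fold higher and 0 lower than in input, with a median of 0.55 beside 0.06 over all genes. Those were Tpst1, which sulphates tyrosines of PSGL-1 and other proteins, at 1.07 and Spn, a leukocyte sialomucin, at 1.01. Against unbound RNA 11 of the 15 were higher and 0 lower in wild-type cells, with a median of 2.36. In Mettl3-deficient cells 0 differed 2-fold from input, and 7 were higher than in unbound RNA, with medians of 0.11 and 0.77. Tpst2, the second tyrosine sulphotransferase, was the 1 gene of the list past 2-fold between the inputs, at 358 RPKM in Mettl3-deficient and 111 RPKM in wild-type input. Its unbound values were 586 and 15.2 RPKM in the same order, which puts it beside Selplg as higher in Mettl3-deficient unbound RNA.

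Of 37 junctional and immunoglobulin-family adhesion genes, 19 were compared. Between m6A-tagged and input RNA 0 differed 2-fold in Mettl3-deficient cells, and 1 did in wild-type cells, the tetraspanin gene Cd81 at -1.70 (114 against 373 RPKM). Over unbound RNA 5 were higher and 7 lower in Mettl3-deficient cells, with a median of -0.17 beside 0.33 over all genes, and 6 were higher and 5 lower in wild-type cells (0.11 beside 0.12). Between the inputs 2 were at least 2-fold higher (2.38% of all genes) and 0 lower in Mettl3-deficient cells. They were Pecam1, an adhesion molecule of endothelium and blood cells (58.7 against 22.0 RPKM, 1.38), and Ctnnb1, which encodes beta-catenin (147 against 62.1 RPKM, 1.23). Jam2, which encodes the JAM-B that binds JAM-C, was low, at 1.46 RPKM in Mettl3-deficient and 4.16 RPKM in wild-type input. Of 32 guidance, angiopoietin and niche factor genes only 7 were compared, with 0 past 2-fold between m6A-tagged and input RNA in either genotype. Over unbound RNA 5 were higher and 0 lower in Mettl3-deficient cells, and 4 higher and 1 lower in wild-type cells. Plxnc1, a semaphorin receptor, was the 1 past 2-fold between the inputs, at 5.70 RPKM in Mettl3-deficient and 27.1 RPKM in wild-type cells (-2.07). Robo1 and Robo2, relatives of Robo4, were at 0.0927 and 0.00482 RPKM in Mettl3-deficient and at 0.0365 and 0.0297 RPKM in wild-type input.

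The gene with the pattern most like each of the 7 was found by the root mean square difference between the 6 log2(RPKM + 1) values, each set centred on its own mean. For Selplg it was Gltpd1, with a difference of 0.07, for Itgb1 it was Uba3 (0.08), for Jam3 Dctd (0.12), for Cd44 Abce1 (0.13), for Robo4 C80913 (0.15) and for Angpt1 Iqgap1 (0.15). Tln1 had the most distant neighbour, Secisbp2 at 0.25, which had 26.8, 0.342 and 20.0 RPKM in Mettl3-deficient m6A-tagged, unbound and input RNA and 22.0, 5.68 and 19.5 RPKM in the same wild-type fractions. Iqgap1 resembled Angpt1, with unbound values of 1.09 and 2.63 RPKM beside m6A-tagged values of 21.8 and 26.5 RPKM in Mettl3-deficient and wild-type cells. With 6 columns and 6295 genes close neighbours are common, and the likeness is only a description.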

How the data were processed

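RNA of sorted HSCs was measured in 18 libraries in 6 groups of 3. Per the file headers, the deposited values are RPKM, with 1 table for each genotype and 1 column for each fraction. The submitters' processing notes name the mm10 build, Picard and edgeR, with no role or version. The identity of the aligner and counter is not given in the sources used here. At its end the Mettl3-deficient table has 4 rows of notes, which were left out. The values show 1 read added to every gene in each library: 6986 genes without reads give whole-number lengths (within 0.005 bases), from which the harmonic mean depth of each column was worked out.

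With 1 mean column per group no count test could be run. Log2 ratios were taken after adding 1 RPKM to the deposited RPKM and called at 2-fold, over the 6295 genes averaging 10 RPKM or more. Alternatives were an added 0.1 or 5 RPKM, no minimum or 50 RPKM, median-ratio scaling, upper-quartile scaling over genes with reads, and a 1.5-fold call. Upper-quartile scaling over the genes compared, and all rescalings of the order of fractions, were chosen after seeing the data. The members and lists were chosen with earlier results of these data known. The text names all 10 members, Mettl3, up to 2 highest and 2 lowest genes of a list in each comparison described, and the likest gene of each member compared. Outside this rule, Cxcl12, Sele, Vcam1, Ackr3, Jam2, Tek, Robo1 and Robo2 were named as partners or relatives of members, and single markers as checks of the cell type. Of 239 listed genes 236 were matched, 7 of them by gene identifier. The functions were tested on simulated tables with 200 changed genes. Python 3.11.15, numpy 2.4.6, pandas 2.3.3 and matplotlib 3.10.9 were used.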

Additional observations from a re-analysis of the deposited data

How the results depend on the processing

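Counts of genes past 2-fold, and of genes with unbound lowest, stayed within 1.5 times the reported count in 59 of 78 alternatives. The counts past 2-fold take both directions together and do not follow which genes pass. Under upper-quartile scaling over genes with reads, wild-type m6A-tagged over unbound stayed at 4, but Tln1 dropped out and Cd44 entered as lower. In Mettl3-deficient over wild-type input the reported 1 became 2 with an added 0.1 RPKM, 2 under median-ratio and under both upper-quartile scalings, 0 with an added 5 RPKM, 0 with a minimum of 50 RPKM and 3 at 1.5-fold. In the genotype difference of m6A-tagged over input the reported 1 became 0 with an added 5 RPKM, 0 under median-ratio scaling, 0 under upper-quartile scaling over genes with reads, 2 without a minimum and 3 at 1.5-fold. At 1.5-fold the 0 of m6A-tagged over input became 2 in Mettl3-deficient cells, against 1 in wild-type cells, and the 0 between genotypes in m6A-tagged RNA became 2, or 1 without a minimum. With a minimum of 50 RPKM, which leaves 4 of the genes, the 5 of Mettl3-deficient m6A-tagged over unbound and the 5 of Mettl3-deficient over wild-type unbound each became 3. Without a minimum, the 4 of wild-type m6A-tagged over unbound became 7, since all 10 genes then count. Of 450 ratios of single genes under an alternative, 35 moved by more than 1.5-fold and none of those past 2-fold changed sign, 27 of the 35 came from the added RPKM and 8 from upper-quartile scaling over genes with reads.

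Scaling moved the median log2 ratio of all genes by -0.65 in Mettl3-deficient and -0.59 in wild-type m6A-tagged over unbound RNA under upper-quartile scaling over genes with reads, and by 0.16 and 0.21 over the genes compared. Among genes past 2-fold, the share higher was 66.7% as reported and 39.5% to 72.2% under scaling in Mettl3-deficient, and 61.9% and 38.7% to 71.1% in wild-type m6A-tagged over unbound RNA. Over input it was 48.6% and 26.1% to 29.8% in Mettl3-deficient, and 41.4% and 21.8% to 40.0% in wild-type cells. For the genotype difference over input it was 71.5% and 54.8% to 68.8%. Between genotypes it was 26.3% and 30.6% to 38.9% in input and 45.7% and 39.7% to 59.3% in m6A-tagged RNA. The cause of these moves was not tested. No paired analysis was possible because the columns are means over libraries and carry no replicate number, and for the same reason the leave-one-out and replicate block fits were not run. Depth limits Cxcr4 and Itga4 most, with 2.60 and 3.57 reads per kilobase and library in Mettl3-deficient unbound RNA.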
